A study of Mus musculus with 6 samples.

Results

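The genes described are 10 members of the S100, galectin and annexin families, namely S100a4, S100a6, S100a10, S100a11, S100a13, Lgals1, Lgals3, Lgals9, Anxa1 and Anxa2, of 27179 genes in the deposited table. They were picked by name, with the calprotectin subunits S100a8 and S100a9 left out, and with the difference between the groups in these same libraries already known. Their differences between the groups are therefore given as a description, without a test. All 10 were found in the table and all 10 passed the low-value filter, which asked for a level of 1 CPM or more in 3 or more libraries. CPM is the number of reads of a gene scaled to a common library size.

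The libraries came from long-term haematopoietic stem cells (LT-HSC) of adult C57BL/6 mice, 8 to 12 weeks old, that carry conditional Prdm16 alleles. The knockout group (labelled Prdm16-Mx1-Cko/Cko; Tg/+) had the Mx1-Cre transgene, and the control group (Prdm16-Mx1-Cko/Cko; +/+) had the same conditional alleles without it. Both genotypes were given pIpC, an RNA analogue that triggers interferon and so switches on the Mx1 promoter, in 5 injections, and cells were taken 5 weeks later. Mx1-Cre acts in interferon-responsive cells in general and is not restricted to stem cells. The sort kept marrow cells positive for c-Kit, Sca-1 and CD150 and negative for CD48 and lineage antigens. Marrow of 5 mice was pooled per genotype and the sorted cells were divided into 3 technical replicates, so the p-values below measure the spread between portions of a single pool per genotype and not between animals.

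S100 proteins are small EF-hand proteins that bind calcium and then their targets. Annexins bind phospholipid membranes when calcium rises, and several of them dock an S100 dimer: S100A10 with annexin A2, and S100A11 with annexin A1. Galectins are lectins that bind beta-galactosides on cell-surface glycoproteins and are secreted without a signal peptide. In bone marrow, galectin-3 is abundant in macrophages and annexin A1 in neutrophils and monocytes.

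The libraries held 36747729 to 43743795 reads. Prdm16 itself had 323, 388 and 643 reads in the knockout libraries, against 1630, 1860 and 1381 in the control libraries. Markers of the labelled cell type had reads in both groups. The summed level of 10 LT-HSC markers, among them Kit, Ly6a and Slamf1, was 2694 to 2971 CPM in knockout and 2714 to 2876 CPM in control. Of the 10 markers, 0 passed the test (limma, adjusted p below 0.05). By voom 0 passed as well, and 2 had an unadjusted p under 0.05. These markers do not cover the antigens for which the sorted cells were negative. Markers of mature cells, several of them higher in knockout, are given further below. Libraries of the same group differed by more than counting error. For the 10 genes the SD between libraries was 2.77 to 11.2 times the counting SD in knockout and 2.82 to 7.89 times in control, where the medians over all tested genes were 5.65 and 5.58.

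For 8 of the 10 genes the RefSeq table for GRCm38.p6 gave the 250 bases before a transcription start. The window of S100a13 precedes a start inside the annotated gene, so it lies mostly within S100a13 and overlaps S100a1. Those of 3 genes are printed 5′ to 3′: that of Lgals3, the gene with the largest ratio of group means among the 10, and those of Anxa2 and S100a11, which hold the AP-1 recognition sequence TGANTCA. Capitals mark TGANTCA, the GC box GGGCGG and the TATA box TATAAA on either strand, none of which overlap each other here. The windows are chr14:47373610-47373859 on the plus strand for Lgals3, chr9:69453433-69453682 on the plus strand for Anxa2 and chr3:93520246-93520495 on the plus strand for S100a11.
Lgals3: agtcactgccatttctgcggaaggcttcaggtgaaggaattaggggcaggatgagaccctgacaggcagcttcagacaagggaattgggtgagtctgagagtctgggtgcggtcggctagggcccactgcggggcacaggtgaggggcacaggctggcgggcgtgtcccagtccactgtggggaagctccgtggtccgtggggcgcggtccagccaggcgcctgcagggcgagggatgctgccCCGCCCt
Anxa2: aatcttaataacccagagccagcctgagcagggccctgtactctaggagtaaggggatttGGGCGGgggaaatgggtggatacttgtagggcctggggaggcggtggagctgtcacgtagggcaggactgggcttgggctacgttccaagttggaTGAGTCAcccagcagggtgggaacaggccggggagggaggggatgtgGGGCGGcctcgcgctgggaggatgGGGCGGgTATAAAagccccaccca
S100a11: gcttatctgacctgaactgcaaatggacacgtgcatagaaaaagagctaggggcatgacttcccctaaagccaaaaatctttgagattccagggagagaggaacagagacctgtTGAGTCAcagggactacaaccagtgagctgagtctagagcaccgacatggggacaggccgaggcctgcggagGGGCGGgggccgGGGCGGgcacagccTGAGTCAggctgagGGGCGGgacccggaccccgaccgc
TGANTCA was in 2 of the 8 windows, 2 copies in S100a11 and 1 in Anxa2, and in 6.75% of all 32851 windows of this length in the RefSeq table. GGGCGG was in 3 of the 8 (Lgals3, Anxa2 and S100a11) and in 32.7% of all windows. TATAAA was in 3 of the 8 (Anxa1, Anxa2 and S100a4) and in 12.4% of all windows. These are matches of letters and were not tied to binding in these cells.

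Among the 10 genes, Lgals1 and Lgals3 had the largest ratios between the groups, while Lgals9 had the largest difference in CPM. Lgals1 (gene ID 16852, chromosome 15, 78926725 to 78930465), encoding galectin-1, a dimeric lectin that cross-links surface glycoproteins, was at 50.1, 50.2 and 43.0 CPM in the knockout libraries, against 14.7, 23.1 and 18.7 CPM in the control libraries. The lowest knockout library was above the highest control library. The means were 47.7 ± 4.15 CPM in knockout and 18.8 ± 4.23 CPM in control (SD, n = 3 each), a ratio of 2.54 and a log2 fold change of 1.36 (SE 0.21). The annotation places another gene, Gm30368, over 1271 bases of Lgals1, and it was not analysed here. As the strand setting of the counting is not known, reads from the shared bases cannot be told apart.

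Lgals3 (gene ID 16854, chromosome 14, 47373860 to 47386167) encodes galectin-3, which has a single lectin domain on a repetitive tail. It had 579, 859 and 759 reads in the knockout libraries, against 0, 73 and 129 reads in the control libraries. The groups did not overlap, and control replicate 1 stood at 0, where 3 reads, or 0.0742 CPM, is the limit that a count of 0 allows. The means were 17.7 ± 2.19 CPM in knockout and 1.65 ± 1.51 CPM in control (SD, n = 3 each). The ratio of these means was 10.7. The fitted log2 fold change was 5.39 (SE 1.69) with the 0.5-read offset of the deposited values and 3.03 with log2(CPM + 1). It was 2.86 without control replicate 1, 6.52 without control replicate 2 and 6.81 without control replicate 3, so its size on the log scale moved with how the library at 0 entered. The coefficient of variation was 12.4% in knockout and 91.6% in control.

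Lgals9 (gene ID 16859, chromosome 11, 78962979 to 78984924), encoding galectin-9, a lectin with a pair of carbohydrate-binding domains in tandem and a ligand of the receptor Tim-3, was at 648.9, 741.4 and 695.5 CPM in knockout and 635.2, 616.1 and 635.7 CPM in control. All knockout libraries were above all control libraries, knockout replicate 1 by a small margin. The log2 fold change was 0.14 (SE 0.06), a ratio of means of 1.11. Control libraries varied less than for any other of the 10 genes, with a coefficient of variation of 1.78%, against 6.65% in knockout.

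**Figure D1:**
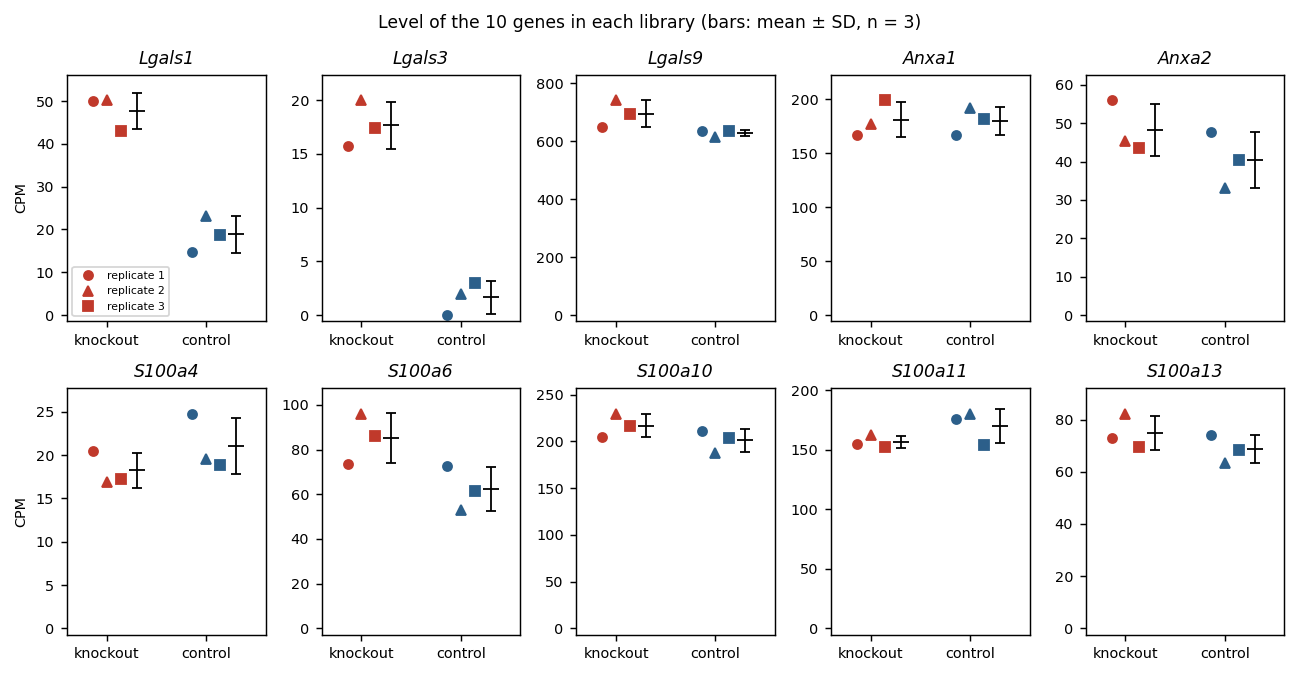
Level of each of the 10 genes in CPM (vertical axis, from 0) in the 3 knockout and 3 control libraries, with points shaped by replicate number and black bars for mean ± SD. Lgals1 and Lgals3 separate widely (43.0 to 50.2 against 14.7 to 23.1 CPM, and means of 17.7 against 1.65 CPM), while most other genes overlap.

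Of the 5 S100 genes described, S100a6 had the largest positive log2 fold change. S100a6 (gene ID 20200, chromosome 3, 90612894 to 90614414), encoding calcyclin, was at 73.6, 96.1 and 86.1 CPM in knockout, against 72.5, 52.8 and 61.5 CPM in control. The groups did not overlap, but the lowest knockout library and the highest control library were close. The log2 fold change was 0.46 (SE 0.16).

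S100a4 (gene ID 20198, chromosome 3, 90603770 to 90606045), also called metastasin or FSP1 and a binder of non-muscle myosin, was at 20.5, 16.9 and 17.3 CPM in knockout, against 24.8, 19.6 and 18.9 CPM in control. The groups overlapped through knockout replicate 1, and the log2 fold change was -0.21 (SE 0.21).

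S100a10 (gene ID 20194, chromosome 3, 93555117 to 93564645) encodes p11, the partner of annexin A2, which is unusual among S100 proteins in that its calcium-binding loops are not functional. Its levels were 204.9, 229.7 and 216.3 CPM in knockout and 211.2, 188.0 and 203.8 CPM in control, which overlap. The log2 fold change was 0.11 (SE 0.09).

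S100a11 (gene ID 20195, chromosome 3, 93520496 to 93526288), the partner of annexin A1, was at 154.9, 162.6 and 152.2 CPM in knockout, against 176.0, 180.4 and 153.7 CPM in control. The groups overlapped through control replicate 3, and the log2 fold change was -0.12 (SE 0.10). A pseudogene copy, S100a11-ps on chromosome 12, had 0 to 10 reads in knockout and 3 to 20 in control, where S100a11 had 5724 to 7113 reads over all libraries.

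S100a13 (gene ID 20196, chromosome 3, 90514233 to 90524581), which takes part in the export of FGF1 and interleukin-1 alpha, was at 72.9, 82.3 and 69.5 CPM in knockout and 74.2, 63.4 and 68.5 CPM in control. These overlap, and the log2 fold change was 0.12 (SE 0.13). S100a13 shares 98 bases with S100a1, and because the strand setting of the counting is not given in the sources used here, reads from the shared bases cannot be told apart.

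Among the annexins, Anxa1 (gene ID 16952, chromosome 19, 20373434 to 20390671), encoding annexin A1, a ligand of formyl peptide receptors, had levels of 167.3, 177.3 and 199.0 CPM in knockout and 166.4, 191.7 and 181.5 CPM in control. Its means were 181.2 ± 16.2 and 179.9 ± 12.7 CPM (SD, n = 3 each), and the log2 fold change was 0.01 (SE 0.10).

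Anxa2 (gene ID 12306, chromosome 9, 69453683 to 69491792), encoding annexin A2, was at 56.0, 45.3 and 43.5 CPM in knockout, against 47.8, 33.1 and 40.5 CPM in control. The groups overlapped, and the log2 fold change was 0.26 (SE 0.18). The groups thus overlapped for Anxa2 and its partner S100a10, and for Anxa1 and its partner S100a11.

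Counted over the 10 genes, 8 had a positive and 2 a negative log2 fold change, with a median of 0.13 where the median over all 13018 tested genes was 0.003. All 3 knockout libraries lay above all 3 control libraries for 4 of the 10 genes (S100a6, Lgals1, Lgals3 and Lgals9) and below them for 0. Over all tested genes, 8.52% lay above and 8.01% below in this way. One gene, Lgals1, would pass the test across all genes (limma, adjusted p below 0.05), against 0.407% of tested genes that were called higher and 0.699% called in either direction. That call was lost in 8 of 21 alternative fits, among them those without knockout replicate 1, knockout replicate 2 or control replicate 3. As the genes were chosen with this comparison in view, these counts describe the choice and nothing is read from them.

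The libraries at the extremes were similar across the genes. Knockout replicate 2 was the highest of the 6 libraries for 6 of the 10 genes (S100a6, S100a10, S100a13, Lgals1, Lgals3 and Lgals9), and control replicate 2 was the lowest for 5 (S100a6, S100a10, S100a13, Lgals9 and Anxa2). Control replicate 1 was the lowest for 3 (Lgals1, Lgals3 and Anxa1). Averaged over the standardised profiles of the 10 genes, the libraries stood at 0.14, 0.66 and 0.26 in knockout and -0.10, -0.53 and -0.44 in control. Among 6502 other tested genes at or above the median level, those with the most similar profile were R3hdm1 (Pearson r = 0.978 over the 6 libraries), Psmd6 (0.975), Papola (0.972), Gng10 (0.968) and Pgrmc2 (0.963). The 6 libraries share 2 cell pools, so these values are a description only. None of these 5 genes passed the test (limma, adjusted p = 0.471 to 0.855), with log2 fold changes of 0.06 to 0.22.

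Levels per length were compared as CPM per kilobase of exon, with exon lengths from GENCODE M21. Lgals9 was the highest of the 10 in both groups, at 431 ± 28.7 CPM per kilobase in knockout and 390 ± 6.94 in control (SD, n = 3 each), above 99.2% and 99% of 12450 tested genes with a length. S100a11 followed at 306 ± 10.6 in knockout and 333 ± 28.1 in control, and S100a10 at 271 ± 15.5 and 251 ± 14.8. The libraries of these 3 genes did not overlap in either group. In knockout, S100a6 (105 ± 13.9), S100a13 (105 ± 9.31) and Anxa1 (95.7 ± 8.58) came next and overlapped. In control, S100a13 (96.1 ± 7.57), Anxa1 (95.0 ± 6.70) and S100a6 (77.0 ± 12.2) held these places, and each overlapped the next. Lgals1 stood at 59.7 ± 5.18 in knockout, the seventh place, and at 23.5 ± 5.29 in control, the ninth, where it overlapped Anxa2 (28.0 ± 5.06). S100a4 was at 36.6 ± 3.97 in knockout and 42.4 ± 6.46 in control. Lgals3 was the lowest of the 10 in both groups, at 11.1 ± 1.38 CPM per kilobase in knockout and 1.04 ± 0.948 in control, above 49.1% and 10.9% of tested genes.

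The table held 15 S100 genes of chromosome 3, of which 5 are among the genes described and 9 passed the filter. S100a4, S100a5 and S100a6 are neighbours, separated by 434 and 1109 bases. Their log2 fold changes were -0.21 (SE 0.21), -0.72 (SE 0.93) and 0.46 (SE 0.16). S100a5 was near the filter limit, with 0.819 ± 0.314 CPM in knockout and 1.5 ± 0.928 CPM in control. S100a8 and S100a9, the calprotectin subunits of neutrophils, start 158.0 and 181.6 kilobases from the start of S100a1, where S100a6 starts at 101.9. At the other end of the cluster, S100a1, which overlaps S100a13, was at 103.7, 118.3 and 117.9 CPM in knockout, all below the 133.7, 136.6 and 123.4 CPM of control, and its log2 fold change of -0.21 (SE 0.11) missed the threshold (limma, adjusted p = 0.52). Of the 9 tested S100 genes on the chromosome, 5 had positive and 4 negative values, in mixed order along it.

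**Figure D2:**
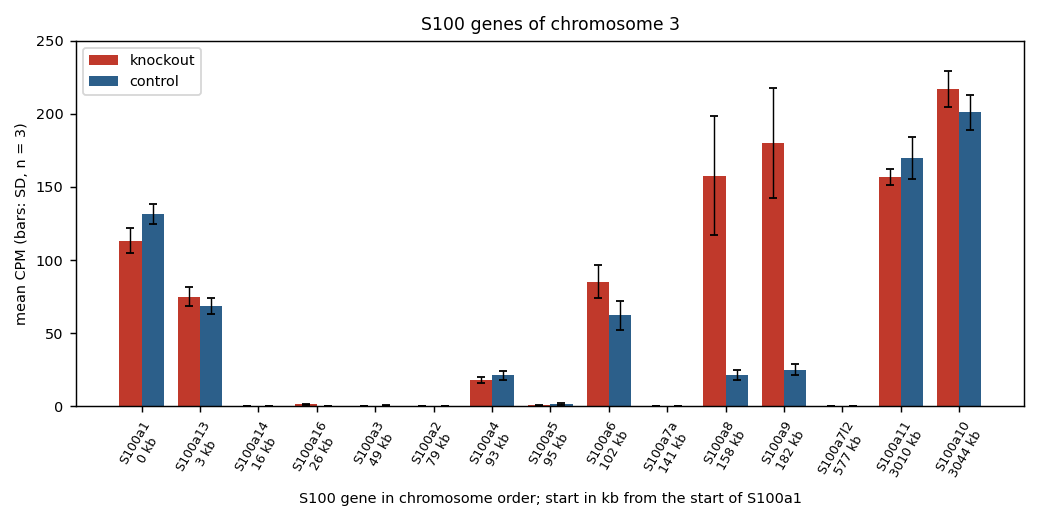
Mean level in CPM (vertical axis, bars for SD, n = 3) of 15 S100 genes in chromosome order in knockout and control, with each gene's start given in kilobases from that of S100a1. S100a8 and S100a9 stand apart between the groups (158 against 21.2 and 180 against 25.1 CPM), while S100a4 and S100a6 differ less (18.2 against 21.1 and 85.3 against 62.3 CPM).

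The rest of the 3 families gave 30 more genes in the table, of which 14 passed the filter. They were listed by family, but with earlier results of these data known, and the 10 genes were taken out of the same families first. Their counts are therefore a description. Of the 14, 2 rose and 0 fell (limma, adjusted p below 0.05), where 0.407% and 0.292% of all tested genes did, and the median log2 fold change was -0.14. The 2 that rose were S100a8, at 158 ± 40.5 CPM in knockout and 21.2 ± 3.42 in control (log2 fold change 2.88, SE 0.20, limma adjusted p = 0.000165), and S100a9. Among the 12 others 3 had positive and 9 negative values, and the groups did not overlap for 6, 2 higher and 4 lower, where 16.5% of all tested genes did not overlap. S100a16, named with its values in view, missed the filter. It was at 1.14, 0.932 and 1.88 CPM in knockout and 0, 0.326 and 0.206 CPM in control.

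Of the 10 remaining annexin genes 7 were tested, and 0 passed by limma or voom. At an unadjusted p under 0.05 there were 3, against 1340 of all 13018 tested genes. Anxa3 had 8.66, 14.4 and 15.7 CPM in knockout, all above the 5.17, 5.51 and 4.86 CPM of control, and its log2 fold change of 1.27 (SE 0.33) missed the threshold (limma, adjusted p = 0.182). Anxa9 had 26.6 ± 6.10 CPM in knockout and 37.6 ± 3.50 CPM in control (-0.53, SE 0.21), and Anxa6 had 138.0 ± 18.5 CPM in knockout and 166.1 ± 12.0 CPM in control (-0.27, SE 0.12). Neither passed (limma, adjusted p = 0.419 and 0.471). Anxa4 (-0.17), Anxa5 (-0.08), Anxa7 (0.09) and Anxa11 (0.14), given as log2 fold changes, did not pass either (adjusted p = 0.579 to 0.867). Anxa8, Anxa10 and Anxa13 had 0 reads in every library.

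Of the other galectins, Lgals8, a tandem-repeat galectin that marks damaged vesicles for autophagy, was at 100.4 ± 8.25 CPM in knockout and 110.4 ± 6.62 CPM in control. Lgals4 was at 13.3 ± 2.83 CPM in knockout and 14.7 ± 0.109 CPM in control, and the galectin-related gene Lgalsl at 14.8 ± 6.83 and 15.5 ± 2.38 CPM. None of these 3 passed the test, with log2 fold changes of -0.14, -0.16 and -0.15 (limma, adjusted p = 0.71 to 0.915). Lgals2, Lgals7, Lgals12 and Grifin had too few reads to be tested.

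**Figure D3:**
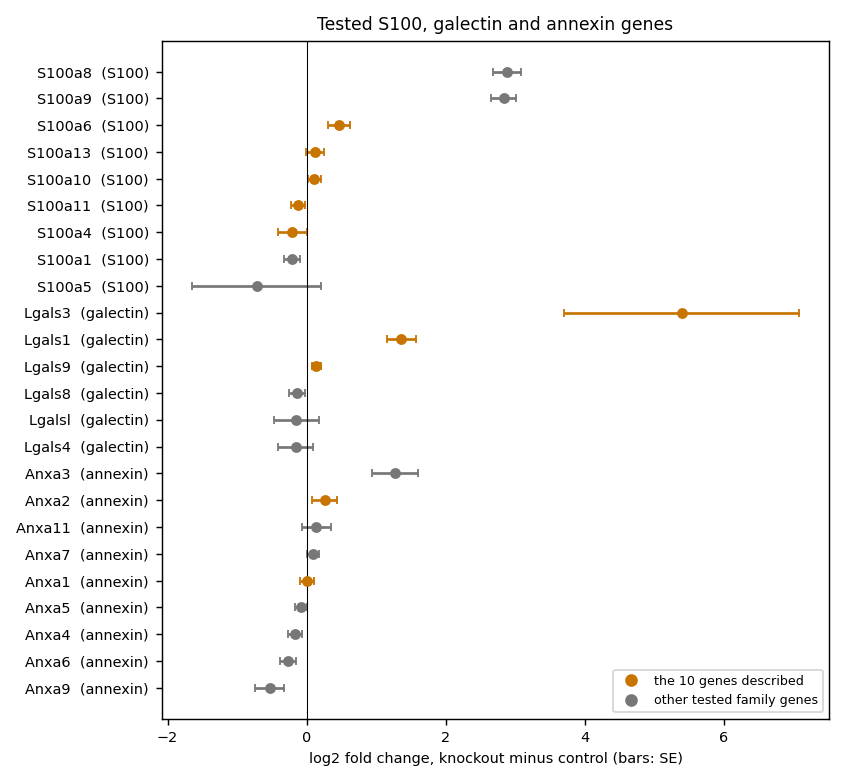
Log2 fold change, knockout minus control (horizontal axis, bars for SE), of the 24 tested S100, galectin and annexin genes, sorted within each family. S100a8 and S100a9 (2.88 and 2.83), Lgals3 (5.39), Lgals1 (1.36) and Anxa3 (1.27) stand to the right, and the other genes lie between -0.72 and 0.46.

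Partners of these proteins were listed apart from the families, and 33 of 45 listed genes were tested. None rose or fell (limma, 0 of 33 at adjusted p below 0.05, and 0 with voom), 3 had an unadjusted p under 0.05, and 16 had positive and 17 negative values. Over all tested genes 1340 of 13018 had such an unadjusted p, so the 3 of 33 are near the background. Among calcium-binding and S100 partners, Cacybp, the calcyclin-binding protein, was at 271.8 ± 25.1 CPM in knockout and 226.8 ± 8.09 CPM in control (log2 fold change 0.26, SE 0.09, limma adjusted p = 0.337). Sri, encoding sorcin, was at 253.0 ± 33.1 CPM in knockout and 295.0 ± 18.9 CPM in control (-0.23, SE 0.10, limma adjusted p = 0.49).

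Of the plasminogen system, for which the annexin A2 and S100A10 complex is a cell-surface receptor, 2 of 7 genes were tested. Plgrkt, a plasminogen receptor, was at 124.2 ± 8.50 CPM in knockout and 114.2 ± 1.37 CPM in control, and Plaur, the urokinase receptor, at 12.8 ± 3.83 and 15.2 ± 3.88 CPM. Neither passed (limma, adjusted p = 0.729 and 0.81). Plat had 0 reads in every library. Serpinb2, encoding a plasminogen activator inhibitor and named after its values were seen, had 3.33, 0.978 and 3.87 CPM in knockout and 0 reads in every control library. It missed the filter, and was called with no filter (limma, adjusted p = 0.0196).

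Of the receptors for S100 proteins and annexin A1, Bsg (basigin) was at 397.5 ± 23.2 CPM in knockout and 400.5 ± 30.8 CPM in control, and Tlr4 at 20.2 ± 6.70 and 25.0 ± 2.20 CPM (limma, adjusted p = 0.983 and 0.677). The annexin A1 receptors Fpr1 and Fpr2 were near 0, with 0.907 ± 0.881 and 0.277 ± 0.317 CPM in knockout and 0.109 ± 0.188 and 0.377 ± 0.336 CPM in control, and Fpr3 had 0 reads throughout.

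The glycoproteins that carry galectin ligands gave 12 tested genes, of which 4 had positive and 8 negative values. Itgb1, the integrin beta 1 chain, was at 513.3 ± 52.6 CPM in knockout and 477.7 ± 56.0 CPM in control, and Lamp1, a lysosomal membrane protein, at 368.5 ± 3.24 and 391.8 ± 31.0 CPM (limma, adjusted p = 0.762 and 0.736). Havcr2, which encodes Tim-3, was at 11.6, 9.46 and 2.11 CPM in knockout and 4.03, 3.36 and 3.81 CPM in control, which overlap. Mertk, a receptor kinase named after its values were seen, was at 0.189, 0.629 and 0 CPM in knockout, below the 6.16, 2.96 and 2.11 CPM of control, and did not pass (limma, adjusted p = 0.295). The 9 enzymes that build galectin-binding N-glycans and branched O-glycans included Mgat2 (190.1 ± 14.6 CPM in knockout and 160.8 ± 16.5 CPM in control) and B3gnt2 (115.5 ± 9.84 and 107.0 ± 19.0 CPM), with 0 of the 9 past the test (limma, adjusted p = 0.459 and 0.817 for the 2 genes, and 1 with an unadjusted p under 0.05).

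Summed levels of several mature blood cell marker lists were higher in the same 3 knockout libraries in which Lgals1 and Lgals3 were higher. Calls are by limma, adjusted p below 0.05, and 0.407% of all tested genes were called higher. Epx, Prg2, Prg3, Ear1, Ear2, Adgre1, Prss34, Mcpt8, Igkc, Elane and Ctsg were below 1 CPM in every control library. They passed the filter only through the knockout libraries, so counts that include them are a description and nothing is read from them. Of 10 neutrophil markers, which include S100a8 and S100a9, 7 rose and 0 fell. Their summed level was 565.6 to 770.7 CPM in knockout and 97.7 to 107.4 CPM in control. Cxcr2, in the same list, overlapped, at 1.14 ± 1.21 CPM in knockout and 2.64 ± 3.16 CPM in control. Of 10 monocyte and macrophage markers 7 were tested and 2 rose, with sums of 793.4 to 899.1 CPM in knockout and 573.2 to 589.6 CPM in control. Lyz2 made up most of both sums, at 763.0 ± 48.2 CPM in knockout and 560.3 ± 11.3 CPM in control. Of the 7 tested, 5 were higher in all knockout libraries than in all control libraries, while Cd68 and Fcgr1 overlapped. Adgre1 and Mrc1, which mark macrophages, had 0 reads in every control library, but Mrc1 also had 0 in knockout replicate 1. Of 7 eosinophil markers 5 rose, with sums of 517.9 to 616.5 CPM in knockout and 0.597 to 6.37 CPM in control. Epx and Ear1 had 0 control reads, while Ccr3 and Siglecf overlapped between the groups.

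Further lists moved in the same libraries. Of 5 basophil and mast cell markers 2 rose, with sums of 90.1 to 99.9 CPM in knockout and 12.9 to 18.0 CPM in control, and Prss34, Mcpt8 and Ms4a2 had 0 control reads. Of 6 B and plasma cell markers 1 rose, with sums of 188.4 to 196.4 CPM in knockout and 1.22 to 2.87 CPM in control, and Igkc and Ms4a1 had 0 control reads. Of 4 neutrophil precursor markers 3 rose (Mpo, Elane and Ctsg), with sums of 546.4 to 561.6 CPM in knockout and 203.8 to 216.1 CPM in control. Most of the control sum was Prtn3, which overlapped, at 211.0 ± 11.8 CPM in knockout and 209.2 ± 7.07 CPM in control. Of 5 stromal markers 1 rose, with sums of 32.1 to 46.3 and 16.8 to 20.9 CPM, and of 5 megakaryocyte markers 1 rose, with sums of 1089 to 1166 and 768.0 to 859.9 CPM in knockout and control.

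By limma and by voom 0 genes were called in the lists of T and NK cells, erythroid cells and endothelial cells. At an unadjusted p under 0.05 there were 0, 3 and 0 genes in these lists. The sums for T and NK cells were 91.2 to 113.8 CPM in knockout and 74.8 to 100.7 CPM in control. For erythroid cells they were 57.8 to 71.4 and 45.8 to 50.01 CPM, and for endothelial cells 74.4 to 105.0 and 84.2 to 99.7 CPM. Cd3d, Cd3e and Cd3g had 0 control reads, but Cd3e had 0 in every knockout library as well. In knockout, Cd3d had 52, 2 and 0 reads and Cd3g had 39, 0 and 98. Hba-a1 had 0 control reads and 3, 6 and 3 knockout reads. In bulk samples, more cells of a type and more RNA per cell cannot be told apart. By the labels, the sort kept cells negative for CD48 and lineage antigens, and the purity of the sorted cells was not tested. The part of the listed cell types in the levels of Lgals1, Lgals3 and the other genes was not tested either.

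**Figure D4:**
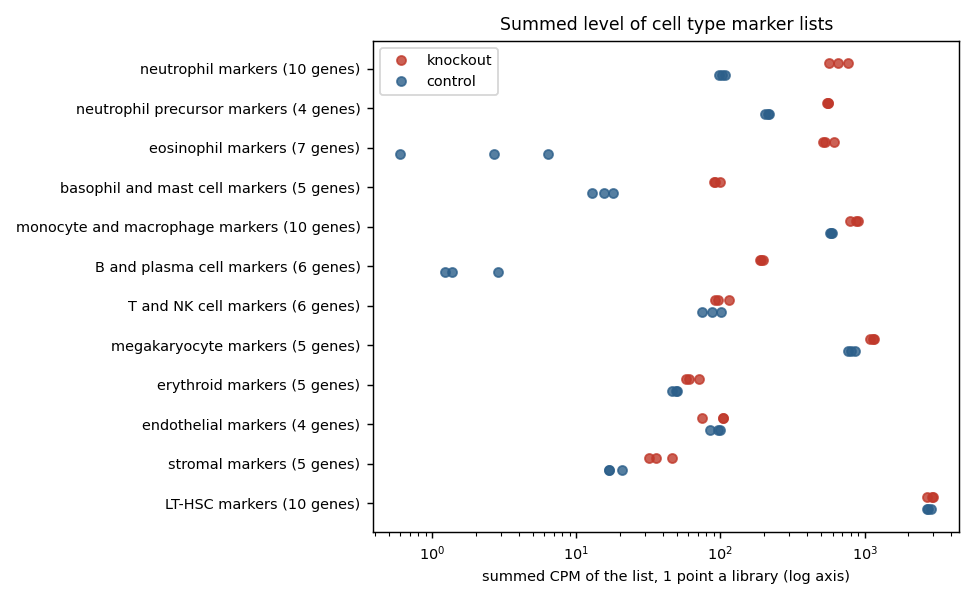
Summed CPM of 12 cell type marker lists (horizontal log axis), with 1 point for each of the 3 knockout and 3 control libraries. Neutrophil, eosinophil, basophil and mast cell, and B and plasma cell lists separate the groups widely (eosinophil sums of 517.9 to 616.5 against 0.597 to 6.37 CPM), while the LT-HSC list overlaps (2694 to 2971 against 2714 to 2876 CPM).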

How the data were processed

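RNA of 6 libraries, 3 per group, was sequenced. The deposited file gives log2 values of 27179 genes that the authors normalized. The submitters' processing notes list the tools FastQC, HISAT2, featureCounts and limma, without settings, and build mm10. Each deposited log2 value is a log2 CPM with 0.5 reads added. Undoing this gave whole reads for 100.0% of values (tolerance 0.01), and CPM in the text is these reads over the same effective library size. The floor of 3 reads covers counting error only.

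The RefSeq gene table of GRCm38.p6 named 25275 gene IDs and left 1904 unnamed. Differences were fitted on the log2 scale with limma 3.58.1 (R 4.3.3, trended eBayes, no block) for the 13018 genes that passed the filter, with Benjamini-Hochberg adjustment over all of them, after testing on simulated data. The genes named by rule were the 10 genes, their tested relatives, partner genes that passed, the 2 highest of each partner list and the 5 most similar profiles. Other genes are marked, follow from a count or belong to the marker lists. Havcr2, Fpr1 and Fpr2 were named outside this rule. The 10 genes and all lists were chosen with earlier results of these data known. Chi-square per degree of freedom was at least 40.31 for each pair of libraries, so none was a repeat deposit. Alternatives changed the filter, normalization, offset or variance model, used voom on the recovered reads, added the replicate number as a block, or dropped 1 library at a time.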

Additional observations from a re-analysis of the deposited data

How the results depend on the processing

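Of 13018 genes tested, 91 were called (53 higher and 38 lower in knockout). With log2(CPM + 1) the count was 164 (105 higher and 59 lower). It was 42 to 97 on leaving out 1 library, with 46, 42 and 53 without knockout replicates 1, 2 and 3, and 52, 41 and 43 without them when the genes of all 6 libraries were kept, an alternative chosen after seeing the data. The cause was not tested. With the replicate block the count was 67. Same-numbered libraries shared only a number: the correlations of their deviations from the group means were -0.01, -0.021 and 0.02, and 1 of 3 knockout libraries correlated best with its own number. S100a8 and S100a9 were called, 2 genes in all of the other S100, galectin and annexin genes, under each of the 21 alternatives, the block included. Among partner, receptor and glycan genes the count of 0 became 1 with no filter and was 0 under the other alternatives, the block included.

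The call of Lgals1 was lost without the trend and on leaving out knockout replicate 1 or 2 or control replicate 3, and without knockout replicate 3 when all genes were kept. Its log2 fold change was 1.19 to 1.52 on leaving out 1 library. Lgals3 was called with log2(CPM + 1) and without control replicate 1. Anxa1 turned in sign without knockout replicate 3 (-0.0603) and without control replicate 1 (-0.0455), with a range of -0.0603 to 0.0651 on leaving out 1 library. Lgalsl turned without knockout replicate 1 (0.0996), with a range of -0.5014 to 0.0996. The other 7 of the 10 genes kept their sign and side of the threshold under all 21 alternatives. As the 10 genes were chosen with this comparison in view, their calls describe how the fits behave and nothing more is read from them. Depth limits genes near 0, such as Lgals3 in control and S100a5.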
